A study of Mus musculus with 6 samples.

Results

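Germinal centre B cells are B cells that divide, mutate their antibody genes and compete for T cell help inside the follicles of the spleen and lymph nodes. A set of 9 genes that mark these cells, leaving aside genes of the general cell cycle, was read from arrays of splenic B cells of mice without and with the tetraspanin CD37. The genes were Bcl6, Fas, Gcsam, Mybl1, S1pr2, Rgs13, Nuggc, Basp1 and Plxnb2. All 9 were found among the 19935 genes measured, each through 1 probe set that names it alone, and no probe set shared between a member and another gene was used. The members were chosen by name, with earlier results of these data known.

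RNA came from CD43-/B220+ splenocytes of 3 CD37KO mice (Cd37 -/-) and 3 wild-type (WT) littermates on a C57BL/6J background, with 1 array per mouse. The labels give an age of 3 months, and the methods a somewhat older one. The deletion is carried by every cell of the mouse, so B cells and the cells around them both lacked CD37. No immunisation or other treatment is given in the sources used here. B cells were obtained by taking away CD43-bearing cells on magnetic beads. B220 staining was used to judge the outcome, so a minority of other cells could be present. Any B cells that bear CD43 would have been taken away too, so the values describe the isolate and not the whole spleen. The values are log2 expression after RMA, a method that corrects the background, brings the arrays to one scale and combines the probes of a gene. Cd37 itself was at 8.15, 8.17 and 8.17 in the CD37KO arrays, against 11.99, 11.82 and 12.08 in the WT arrays, without overlap. The background was placed at a log2 level of 5.76, below which 95% of 1027 olfactory receptor genes lay, a family that B cells hardly use. How bright a probe set is depends in part on its own sequence, and each gene was therefore compared only with itself and with this background.

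In a germinal centre, BCL6 holds back the genes that would let a B cell become a plasma cell or stop dividing. S1PR2, together with regulators of G protein signalling such as RGS13, limits migration and keeps the cells in the follicle, and FAS allows cells that fail selection to be removed. Unimmunised mice hold few such cells in the spleen, and most splenic B cells are resting. In RNA from a mixed population, fewer germinal centre cells and less RNA per cell cannot be told apart.

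No difference between CD37KO and WT B cells was called for any of the 9 germinal centre genes. None passed an adjusted p under 0.05 from limma, which 0.0552% of all genes passed (5 higher and 6 lower), and none passed an unadjusted p under 0.05, which 5.95% of all genes passed. The CD37KO and WT arrays overlapped for all 9, while 11.9% of all genes showed no overlap. The mean was higher in CD37KO cells for 7 of the members and lower for 2, Bcl6 and Rgs13, and the median log2 difference of the members was 0.21, beside -0.019 over all genes. That median became -0.029 without CD37KO replicate 3 and 0.43 without CD37KO replicate 2. For all 9, the range among the 3 CD37KO arrays was larger than the difference between the genotypes, and for 8 the range among the 3 WT arrays was too. Over all genes this was so for 83.8% in CD37KO and 82.5% in WT arrays, close to the members' counts. An exact two-sided permutation test of each single difference gave p = 0.20 or more, where 3 against 3 arrays cannot go below 0.10.

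**Figure D1:**
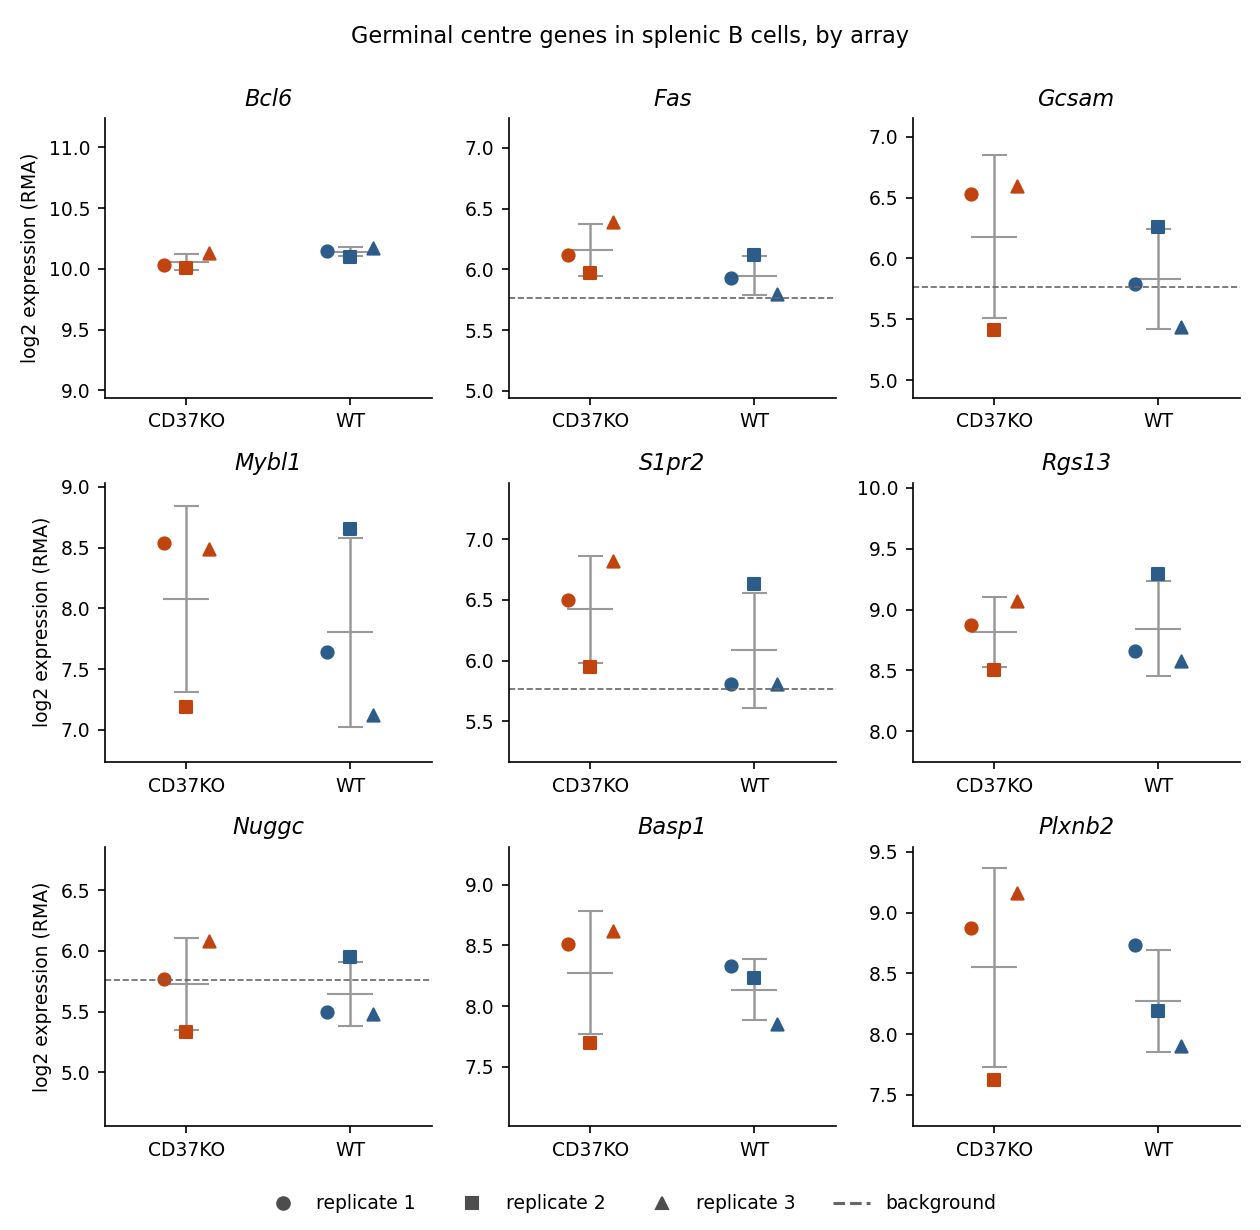
Log2 expression (RMA) of the 9 germinal centre genes in the 3 CD37KO and 3 WT arrays, each panel spanning the same number of log2 units. Symbols give the replicate number, grey bars the mean and SD, and the dashed line the background level of 5.76. The groups overlap in every panel, CD37KO replicate 2 is the lowest CD37KO array in each, and WT replicate 2 is the highest WT array for Fas, Gcsam, Mybl1, S1pr2, Rgs13 and Nuggc.

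Bcl6 encodes the transcriptional repressor without which germinal centres do not form (Entrez Gene 12053, chromosome 16). It was at 10.03, 10.01 and 10.13 in CD37KO B cells, against 10.15, 10.10 and 10.17 in WT B cells. These are the narrowest ranges among the 9 members, and the whole span of the 6 arrays was 0.17 on the log2 scale. The log2 difference was -0.085 (standard error 0.0631, 95% interval -0.23 to 0.059, adjusted p = 0.817 from limma). CD37KO was the higher array in 1 of the 9 possible pairs of a CD37KO and a WT array. The within-genotype SD of Bcl6 was 0.053, under the median of 0.093 for all genes, and it was the only member under that median.

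Mybl1 encodes A-MYB, a transcription factor that is switched on in dividing germinal centre B cells (Entrez Gene 17864, chromosome 1). It was at 8.54, 7.19 and 8.49 in CD37KO cells, against 7.64, 8.65 and 7.12 in WT cells. The highest of the 6 arrays was thus a WT array and the lowest another WT array, 1.53 apart on the log2 scale or 2.89-fold. The log2 difference between the genotypes was 0.27 (standard error 0.44, 95% interval -0.75 to 1.28, adjusted p = 0.907 from limma). The within-genotype SD was 0.77, higher than that of 99.9% of all genes.

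The palindrome TTCNNNGAA, which reads the same on both strands, is bound by STAT factors, and the recognition sequence of BCL6 is one form of it. BCL6 is known to repress its own gene, and promoters were therefore searched for the palindrome in the 250 bases before each annotated start. RefSeq windows of build GRCm38.p6 were at hand for 7 of the 9 members (9 windows), and 3 of the 9 windows held the palindrome, against 7.02% of all 32851 windows. They belong to Bcl6 and Fas. The narrower form TTCCTNGAA, itself a case of the first, was in 1 of them, a Bcl6 window, and in 1.31% of all windows. These are matches of letters and not measured binding. The window before a start within the Bcl6 gene, with 3 matches, and the window of Fas, with 1, are shown as windows that held a match. The other Bcl6 window held 1 match and is not shown. The matches are in capitals.
Bcl6 (chr16:23981284-23981533, minus strand): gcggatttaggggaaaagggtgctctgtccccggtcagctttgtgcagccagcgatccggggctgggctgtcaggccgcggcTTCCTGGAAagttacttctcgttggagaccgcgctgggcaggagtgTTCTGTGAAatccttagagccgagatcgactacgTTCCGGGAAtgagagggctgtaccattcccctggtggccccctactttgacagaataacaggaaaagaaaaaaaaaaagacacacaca
Fas (chr19:34290409-34290658, plus strand): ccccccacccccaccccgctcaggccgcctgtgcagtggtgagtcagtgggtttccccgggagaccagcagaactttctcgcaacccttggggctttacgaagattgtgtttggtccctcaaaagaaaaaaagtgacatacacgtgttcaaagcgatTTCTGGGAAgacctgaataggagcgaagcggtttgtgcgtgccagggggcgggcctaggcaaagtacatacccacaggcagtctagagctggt
The other windows searched, those of Gcsam, S1pr2, Rgs13, Basp1 and Plxnb2, held no match, which says only that these letters were not in them.

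Gcsam encodes a membrane-bound adaptor of germinal centre B cells that modulates signals from the B cell receptor (Entrez Gene 14525, chromosome 16). It was at 6.53, 5.41 and 6.60 in CD37KO cells, against 5.79, 6.26 and 5.44 in WT cells. CD37KO replicate 2 and WT replicate 3 lay below background, and WT replicate 1 only just above it. The log2 difference was 0.35 (standard error 0.32, 95% interval -0.38 to 1.08, adjusted p = 0.841 from limma), the largest of the 9, and CD37KO was higher in 6 of 9 array pairs. Values this close to background are compressed by the method, and the fold in RNA may be larger.

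Nuggc encodes a nuclear GTPase found mainly in germinal centre B cells (Entrez Gene 100503545, chromosome 14). It was at 5.77, 5.33 and 6.08 in CD37KO cells, against 5.50, 5.95 and 5.48 in WT cells, so 2 CD37KO arrays and 1 WT array exceeded background, CD37KO replicate 1 barely so. CD37KO cells averaged 0.082 higher on the log2 scale (standard error 0.19, 95% interval -0.36 to 0.52, adjusted p = 0.94 from limma). The arrays in which Nuggc was detected were the same 3 in which Gcsam was highest, CD37KO replicates 1 and 3 and WT replicate 2.

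S1pr2 encodes the sphingosine-1-phosphate receptor that confines germinal centre B cells to the follicle (Entrez Gene 14739, chromosome 9). It was at 6.50, 5.95 and 6.82 in CD37KO cells, against 5.81, 6.63 and 5.81 in WT cells. WT replicates 1 and 3 stood just above background while WT replicate 2 was level with the higher CD37KO arrays. CD37KO cells averaged 0.34 higher on the log2 scale (standard error 0.27, 95% interval -0.27 to 0.95, adjusted p = 0.828 from limma), with CD37KO higher in 7 of 9 array pairs.

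Rgs13 encodes a regulator that shortens G protein signals from chemokine receptors in germinal centre B cells (Entrez Gene 246709, chromosome 1). It was at 8.87, 8.50 and 9.07 in CD37KO cells, against 8.66, 9.29 and 8.58 in WT cells. WT replicate 2 was the highest array and CD37KO replicate 2 the lowest. The log2 difference was -0.033 (standard error 0.20, 95% interval -0.50 to 0.43, adjusted p = 0.979 from limma), and CD37KO was higher in 4 of 9 array pairs. Rgs13 is also expressed by mast cells, of which 6 marker genes were measured. None of the 6 was above background in all arrays. Ms4a2 was above it in 2 arrays and Kit in 1, and the other 4, among them Cpa3 and Fcer1a, in none. The part of mast cells in the Rgs13 signal was not tested.

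Fas encodes the death receptor CD95, which rises on B cells as they enter the germinal centre (Entrez Gene 14102, chromosome 19). It was at 6.12, 5.97 and 6.39 in CD37KO cells, against 5.93, 6.12 and 5.80 in WT cells, and all 6 arrays were within 0.59 of each other on the log2 scale. On the log2 scale the difference was 0.21 (standard error 0.12, 95% interval -0.063 to 0.49, adjusted p = 0.801 from limma), with CD37KO higher in 7 of 9 array pairs. Its unadjusted p of 0.114 was the lowest of the 9. Fasl, the ligand, was below background in all 6 arrays.

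Plxnb2 encodes plexin B2, a semaphorin receptor that germinal centre B cells use in their contacts with T cells (Entrez Gene 140570, chromosome 15). It was at 8.87, 7.62 and 9.16 in CD37KO cells, against 8.73, 8.19 and 7.90 in WT cells. The highest and the lowest array were both CD37KO, 1.54 apart on the log2 scale or 2.91-fold, the widest span of the 9 members. The log2 difference was 0.27 (standard error 0.37, 95% interval -0.58 to 1.13, adjusted p = 0.887 from limma).

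Basp1 encodes a myristoylated protein of the inner side of the plasma membrane (Entrez Gene 70350, chromosome 15). It was at 8.51, 7.70 and 8.62 in CD37KO cells, against 8.33, 8.23 and 7.85 in WT cells. Its arrays took the same order as those of Plxnb2 and not that of Gcsam or Mybl1. Between the genotypes the log2 difference was 0.14 (standard error 0.23, 95% interval -0.39 to 0.67, adjusted p = 0.906 from limma).

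**Figure D2:**
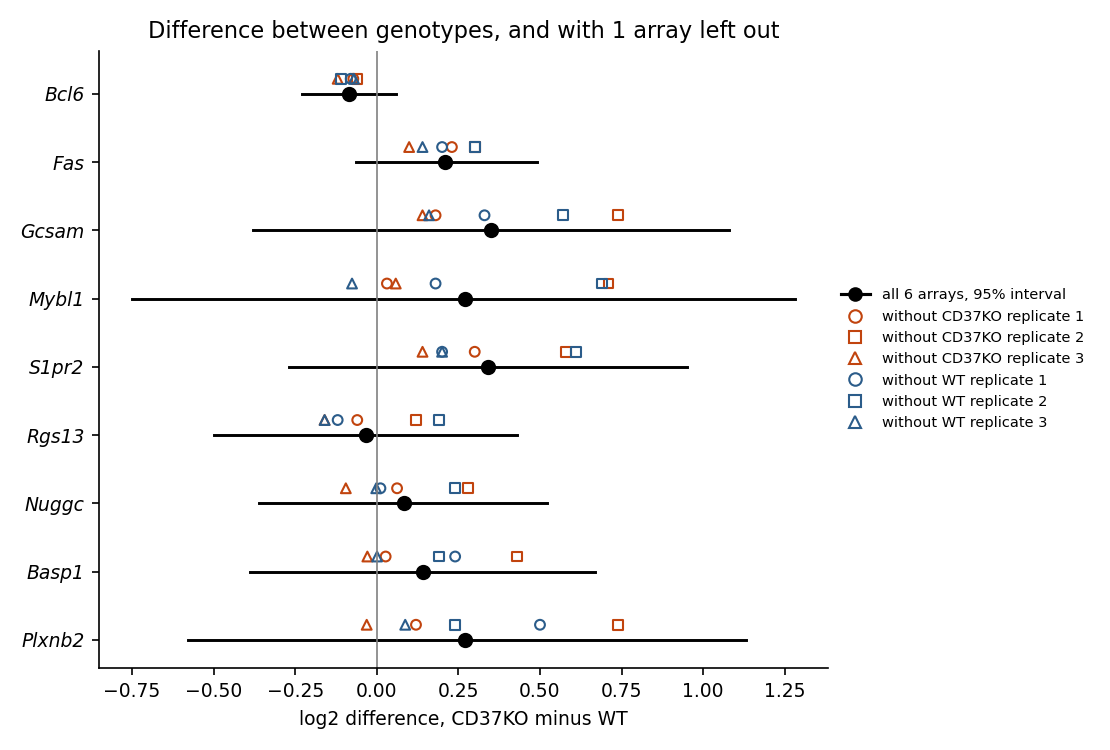
Log2 difference (CD37KO minus WT) of the 9 germinal centre genes with the 95% interval from limma in black, and the difference with 1 array left out as open symbols (CD37KO arrays orange, WT arrays blue). Every black interval holds 0, and leaving out CD37KO replicate 2 or WT replicate 2 (squares) gives the highest values for Gcsam, Mybl1, S1pr2, Rgs13 and Nuggc.

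The sizes of the differences changed with the arrays used. Without CD37KO replicate 2, Gcsam, Plxnb2, Basp1, Fas and S1pr2 passed an unadjusted p under 0.05 from limma, 5 of the 9 members, where 12.7% of all genes did. Without WT replicate 2, Fas and S1pr2 did, 2 of 9, where 8.71% of all genes did. When any other array was left out, no member passed. With arrays weighted by their scatter around the fit, Fas, Gcsam and S1pr2 passed, 3 of 9, where 17.4% of all genes did. These weights, estimated from the same data, were 4.10, 0.46 and 0.76 for WT replicates 1, 2 and 3, so WT replicate 1 dominated its group. For CD37KO replicates 1, 2 and 3 they were 1.06, 0.55 and 1.19. None passed an adjusted p under 0.05 from limma in any of these fits, in which the lowest adjusted p of a member was 0.264 without CD37KO replicate 2, 0.563 without WT replicate 2 and 0.199 with array weights.

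Across arrays, most members rose and fell together irrespective of genotype. For 6 of the 9, namely Fas, Gcsam, Mybl1, S1pr2, Rgs13 and Nuggc, the 3 highest arrays were CD37KO replicates 1 and 3 and WT replicate 2. Of all genes, 7.5% had these as their 3 highest arrays, and 11.7% of the genes above background in every array did. This order was looked for after the values had been seen, and it is given as a description. Of the members, 8 had a within-genotype SD higher than that of at least 91% of all genes, and Bcl6 was the exception. Among 14 cell cycle genes measured, none of them a member, 13 had the same 3 highest arrays, Pcna being the exception. Top2a, the topoisomerase of dividing cells, was at 8.35, 7.58 and 8.42 in CD37KO cells, against 7.62, 7.95 and 7.21 in WT cells. The mean log2 level of the 14 genes was 7.82, 7.22 and 7.86 in CD37KO arrays, against 7.35, 7.63 and 7.08 in WT arrays, and 12 of them were above background in all 6 arrays. None of the 14 differed between the genotypes at an unadjusted p under 0.05 from limma. The part of dividing cells in the levels of the members was not tested.

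The mean profile of the 9 members over the 6 arrays was compared with 1072 other genes. These were above background throughout and had an SD over arrays of at least 0.2. The profile averaged each member's deviations from its own mean without scaling, so the members that varied most weighed most and Bcl6 hardly counted. The 5 closest to the mean profile of the members were Esco2, Ccnb2, Ska3, Ada and Ncapd2, with Pearson's r between 0.977 and 0.992 over 6 arrays that share their normalization, given as a description. Ccnb2 encodes cyclin B2, and Esco2, Ska3 and Ncapd2 encode proteins of sister chromatid cohesion, chromosome attachment to the spindle and chromosome condensation. Ada encodes adenosine deaminase. Esco2, the closest, was at 6.99, 6.10 and 7.07 in CD37KO cells, against 6.49, 6.94 and 6.21 in WT cells.

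Plxnb2 and Basp1 followed another order, with CD37KO replicates 1 and 3 and WT replicate 1 highest, as in 6.16% of all genes and 9.88% of those above background in every array. Of 16 macrophage and monocyte genes measured, 13 had these 3 highest arrays. Above background, 13 were so in all arrays and 2, Ccr2 and Marco, in none. The mean log2 level of the list was 9.15, 8.06 and 9.15 in CD37KO arrays, against 9.04, 8.35 and 8.42 in WT arrays. Among its genes Mertk, a receptor by which macrophages take up dying cells, was at 9.73, 7.74 and 9.73 in CD37KO cells, against 9.46, 8.59 and 8.31 in WT cells. Of 4 erythroblast genes measured, 3 (Slc4a1, Alas2 and Epor) also had these 3 highest arrays. Slc4a1 was above background in all arrays, Alas2 in 4, Epor in 3 and Klf1 in none. The mean of the erythroblast list was 6.08, 5.62 and 6.09 in CD37KO arrays, against 5.97, 5.64 and 5.72 in WT arrays. Plexin B2 is known on macrophages, and the part of either cell type in the Plxnb2 and Basp1 signal was not tested. Neutrophil genes (16 measured) had a mean of 7.53, 6.35 and 6.92 in CD37KO arrays, against 6.06, 5.87 and 6.09 in WT arrays. At an unadjusted p under 0.05 from limma, 13 of them were higher in CD37KO cells, where 2.96% of all genes were. None passed an adjusted p under 0.05 from limma, the lowest being 0.258 for Ngp. In the neutrophil mean every CD37KO array stood above every WT array, which was so for none of the members.

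**Figure D3:**
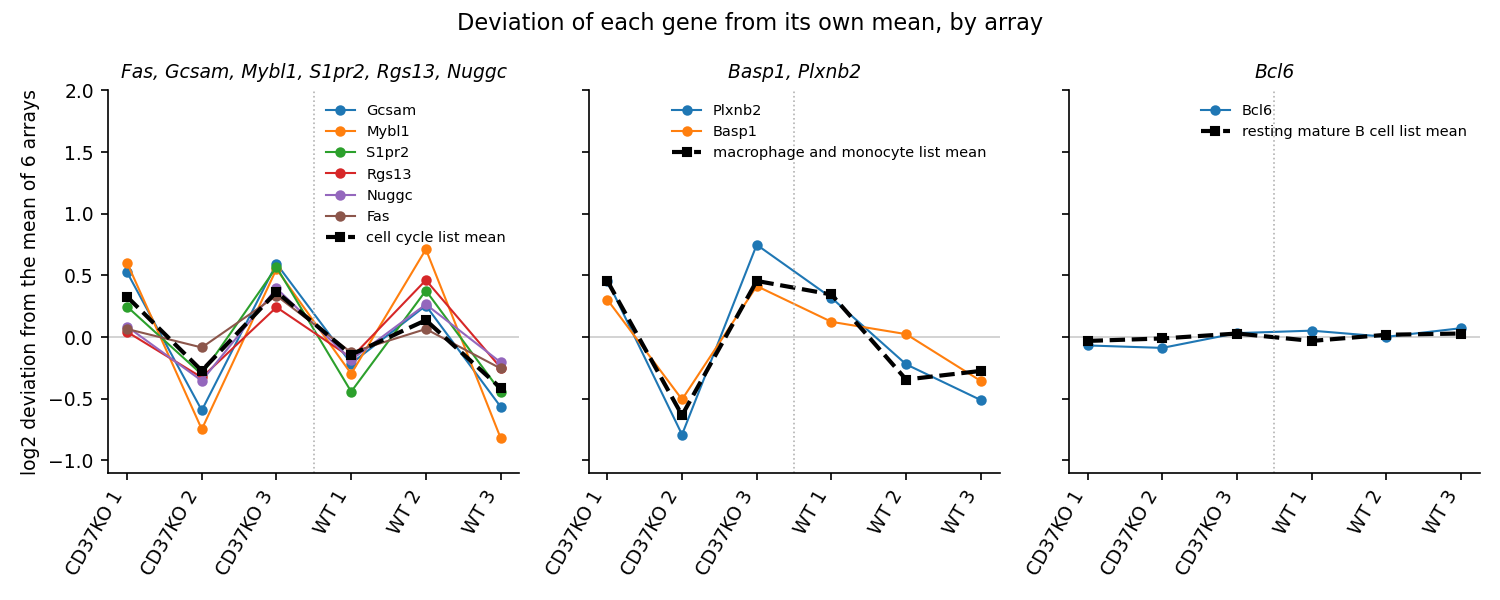
Deviation of each gene from its own mean over the 6 arrays, in log2 units, in the CD37KO arrays left and the WT arrays right of the dotted line, with the mean of a marker list as a black dashed line. The 6 genes of the left panel peak in CD37KO replicates 1 and 3 and WT replicate 2 as the cell cycle list does, Basp1 and Plxnb2 follow the macrophage and monocyte list, and Bcl6 and the resting B cell list are nearly flat.

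Cells that accompany a germinal centre were looked for by their own markers. Of 5 genes of follicular helper T cells, which give B cells help in the germinal centre, Icos and Tox2 were above background in all arrays and Pdcd1, Il21 and Sh2d1a in none. Of 5 genes of follicular dendritic cells, which hold antigen there, Cxcl13 and Mfge8 were above it in all arrays, and Madcam1 in none. C4b, a complement gene and the only one of these 5 at an unadjusted p under 0.05, was at 6.17, 6.01 and 6.13 in CD37KO cells, against 6.02, 5.55 and 5.80 in WT cells (log2 difference 0.31, unadjusted p = 0.0249 and adjusted p = 0.801 from limma). The 3 highest arrays of C4b were CD37KO replicates 1 and 3 and WT replicate 1, as for most macrophage and monocyte genes above. For C4b, however, WT replicate 1 and CD37KO replicate 2 were nearly level. In the mean of the macrophage and monocyte list, CD37KO replicate 2 was the lowest array (8.06). The log2 difference was -0.15 for Cxcl13, -0.12 for Clu, -0.026 for Madcam1 and -0.0058 for Mfge8. The mean levels of the follicular helper T cell and follicular dendritic cell lists stayed between 5.44 and 5.93 in every array. The labelled cell type was checked with 8 genes of resting mature B cells, all above background in every array. Their mean was 11.56, 11.58 and 11.62 in CD37KO arrays, against 11.56, 11.61 and 11.62 in WT arrays.

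The wider germinal centre programme was read from 10 lists with 127 genes, of which 112 were measured. At an adjusted p under 0.05 from limma 0 of the 112 were called. At an unadjusted p under 0.05, 3 were higher in CD37KO cells (2.68%, against 2.96% of all genes) and 3 were lower (2.68%, against 2.99% of all genes), and the median log2 difference was 0.012. Over the 112 together, the shares were thus close to those over all genes. The 3 higher genes all came from the same list, that of genes repressed by BCL6.

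Transcription factors of germinal centre B cells (15 measured, median log2 difference 0.005) had no gene past an unadjusted p under 0.05, nor had BCL6 corepressors and chromatin regulators (8 measured, median -0.012). Pax5, which keeps B cell identity, was at 11.18, 11.13 and 11.26 in CD37KO cells, against 11.09, 11.33 and 11.13 in WT cells. Irf8, an activator of Bcl6, was at 10.72, 10.73 and 10.83 in CD37KO cells, against 10.66, 10.70 and 10.74 in WT cells. Of the genes that BCL6 is known to repress (14 measured, median 0.0064), 3 were higher in CD37KO cells at an unadjusted p under 0.05 from limma. None of the 14 was lower, where 2.96% of all genes were higher and 2.99% lower. Chek1, the checkpoint kinase, had a log2 difference of 0.37 (unadjusted p = 0.0313 from limma). Bcl2l1, the survival gene of BCL-XL, had one of 0.17 (unadjusted p = 0.0326 from limma). For Ccnd2, cyclin D2, it was 0.19 (unadjusted p = 0.0423 from limma). Each had an adjusted p of 0.801. For Chek1, WT replicate 2 was among the 3 highest arrays, beside CD37KO replicates 1 and 3, so the groups overlapped. These were also the 3 highest arrays of most cell cycle genes above. The part of dividing cells in the Chek1 difference was not tested. Bcl2l1 and Ccnd2 had the 3 CD37KO arrays highest. Prdm1, the plasma cell regulator that BCL6 keeps down, was at 7.19, 6.91 and 7.20 in CD37KO cells, against 7.14, 7.10 and 7.08 in WT cells.

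Genes of somatic hypermutation and class switching (14 measured, median log2 difference 0.043) held 1 gene at an unadjusted p under 0.05. This was Rif1, which protects DNA ends during switching, with a log2 difference of -0.18 (unadjusted p = 0.0279 and adjusted p = 0.801 from limma). In 5 of the 14, Apex2, Exo1, Polh, Polq and Neil1, the 3 highest arrays were CD37KO replicates 1 and 3 and WT replicate 2. Of these, Exo1 was close to background throughout and above it in only 2 arrays. Neil1, a DNA glycosylase, was at 10.13, 9.85 and 10.11 in CD37KO cells, against 9.72, 10.03 and 9.81 in WT cells, so the groups overlapped.

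Around S1pr2 and Rgs13, none of the 14 genes of positioning by sphingosine-1-phosphate and chemokines (median log2 difference -0.03) and none of 7 other RGS genes (median 0.021) passed an unadjusted p under 0.05. S1pr1, the receptor that draws B cells out of the tissue, was at 10.15, 10.23 and 9.93 in CD37KO cells, against 10.16, 10.29 and 10.34 in WT cells. Gna13, the G protein subunit through which S1PR2 acts, was at 11.73, 11.79 and 11.59 in CD37KO cells, against 11.73, 11.59 and 11.77 in WT cells. Neither showed the rise of S1pr2 in CD37KO replicates 1 and 3 and WT replicate 2.

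Genes of the light zone, where B cells meet T cell help (12 measured, median log2 difference 0.052), held 1 gene at an unadjusted p under 0.05. Cd274, which encodes the inhibitory ligand PD-L1, was at 9.81, 9.72 and 9.67 in CD37KO cells, against 9.94, 9.97 and 9.99 in WT cells. All CD37KO arrays were below all WT arrays, as for 11.9% of genes in either direction, and the log2 difference was -0.23 (unadjusted p = 0.00607 and adjusted p = 0.801 from limma). Among plexins and class 4 semaphorins (16 measured, median -0.015), Plxnd1, a receptor related to plexin B2, was at 7.77, 8.04 and 8.10 in CD37KO cells, against 8.26, 8.22 and 8.45 in WT cells, a log2 difference of -0.34 (unadjusted p = 0.00967 and adjusted p = 0.801 from limma). Sema4c, a ligand of plexin B2, was below background in all arrays. No gene of the FAS death pathway (6 measured, median 0.079) and none among GCSAM partners and BASP1 relatives (6 measured, median -0.066) passed an unadjusted p under 0.05.

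**Figure D4:**
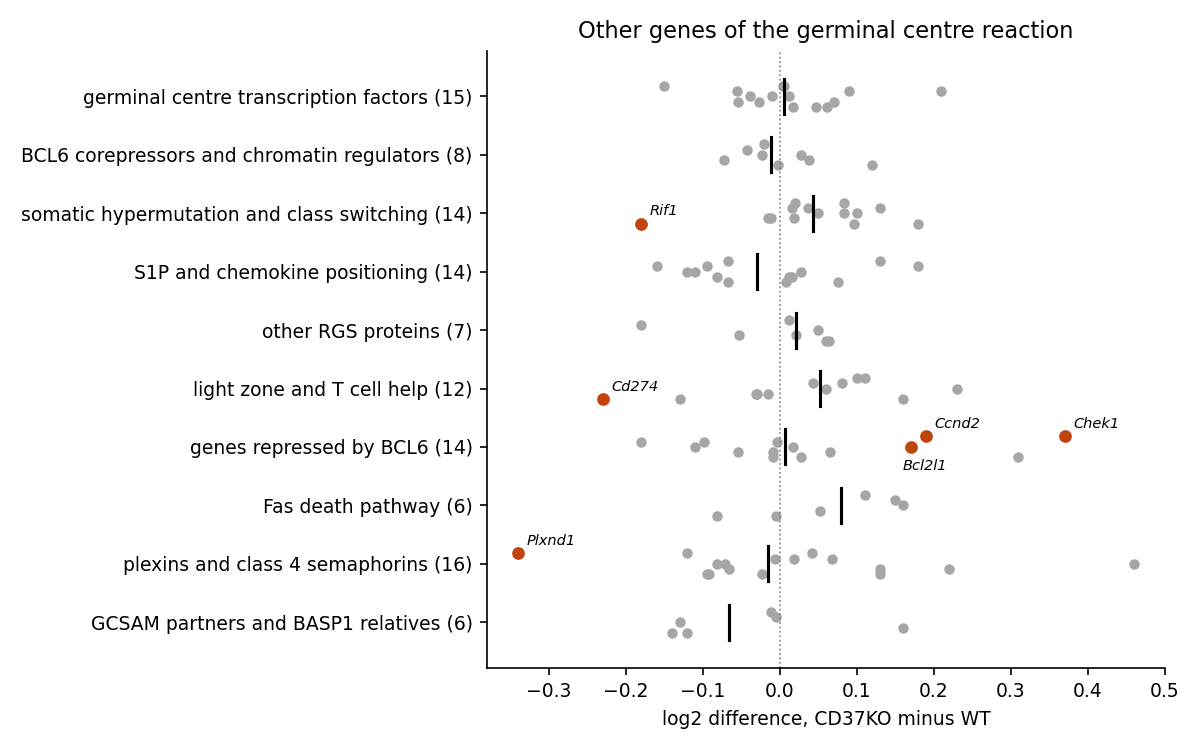
Difference in log2 level, CD37KO minus WT, for single genes of 10 lists of the germinal centre reaction, with the number measured after each name, a black bar at the median and genes at an unadjusted p under 0.05 from limma in orange with their names. The medians lie between -0.066 and 0.079, and 6 genes are orange.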

How the data were processed

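The authors deposited log2 values per probe set of an Affymetrix mouse gene array (35361 probe sets, 6 arrays), and the submitters' processing notes name the genome build mm8 and RMA, but no program that ran it. Probe sets naming 1 gene (21780) were kept, symbols were updated through the Entrez Gene ID, and the brightest probe set on average stood for a gene. Those naming several genes (1605) or none (11976) were left out, and list genes without a probe set of their own were not analysed here. The genotypes were compared in limma 3.58.1 under R 4.3.3 (lmFit, eBayes, two-sided, Benjamini-Hochberg over 19935 genes). The fit was tested on simulated data. No filter on dim genes was applied, and the number of arrays limits the precision.

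The lists, like the members, were chosen with earlier results of these data known. Named besides the members were up to 3 genes per list at an unadjusted p under 0.05, the 5 genes of most similar pattern, and genes picked by role after their values were seen (among them Pax5, Irf8, Prdm1, Neil1, S1pr1, Gna13, Fasl, Sema4c, Top2a and Mertk). Alternatives were another quantile normalization, median centring, the mean of probe sets, a filter on dim genes, the replicate block, array weights, ordinary least squares, eBayes with trend and robust, other background levels and leaving out each array. Promoter sequences were RefSeq's.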

Additional observations from a re-analysis of the deposited data

How the results depend on the processing

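No member passed an adjusted p under 0.05 under any of the 14 alternative fits, where adjusted p-values ran from 0.199 to 1. The count of genes called, 11, became 3 with ordinary least squares, 19 with array weights, 4 with the replicate block and 4 to 14 when 1 array was left out. Members at an unadjusted p under 0.05 numbered 0 as reported, 3 with array weights and 0 to 5 when 1 array was left out. The sign of a member's difference turned in 8 of 126 refits. With array weights Rgs13 had a log2 difference of 0.18, and leaving out 1 array gave -0.16 to 0.19 for Rgs13, -0.095 to 0.28 for Nuggc, -0.076 to 0.71 for Mybl1, -0.031 to 0.74 for Plxnb2 and -0.029 to 0.43 for Basp1. The median difference of the members, 0.21, likewise ran from -0.029 to 0.43. The cause was not tested. Bcl6, Fas, Gcsam and S1pr2 kept their sign throughout. Of the members, 7 were above background in all arrays, and 5 with the background line at the higher of the alternative percentiles, the 99th. Each member has 1 probe set, so other probe sets could not be tried. The deviations of same-numbered arrays had correlations across genes of 0.24, 0.0068 and -0.14. Between differently numbered arrays the correlations ran from -0.37 to 0.31. The replicate block changed no call of a member.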
